A study of Mus musculus with 12 samples.

Results

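The Hox clusters are 4 runs of homeobox genes, Hoxa, Hoxb, Hoxc and Hoxd, whose proteins give body segments their identity along the head-to-tail axis. The members described here are the 38 genes of these clusters on a fixed list, of 47042 autosomal genes in the RefSeq annotation, and for each gene the 1 kb bins that overlap its body with 2 kb on each side. The windows covered 390 of 2462755 autosomal bins, and the 100 kb on each side of the clusters gave 800 flank bins. The Hoxa cluster lay on chromosome 6 (52160417 to 52262880, mm10), Hoxb on chromosome 11 (96192316 to 96370254), Hoxc on chromosome 15 (102919131 to 103038856) and Hoxd on chromosome 2 (74666225 to 74767142). The bodies of Hoxa3, Hoxb3 and Hoxd3 run across neighbouring genes, so some bins belong to several windows, and the genes of a cluster are not independent of each other.

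Hox genes of a cluster are switched on in the order in which they lie on the chromosome, those of the low paralog numbers early and toward the head, those of the high numbers late and toward the tail. In embryonic stem cells they are held silent by Polycomb complexes on CpG-rich promoters that carry both activating and repressive histone marks. GZF1 is a zinc finger protein with a BTB domain that binds DNA, and Hoxa10 has been described as one of its target genes.

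The study mapped where GZF1 sits on chromatin in stem cells of the mouse embryo by immunoprecipitation and sequencing (ChIP-seq), after formaldehyde fixation and digestion with micrococcal nuclease, an enzyme that cuts DNA between nucleosomes. Of its 12 libraries, 8 were analysed here, 1 for each line, genotype and antibody, so no test between libraries was possible and no p-value is given. In the Cas9-GFP line these were Gzf1-Flag clone 35, which overexpresses tagged GZF1, with anti-FLAG (69978204 reads), wild type with anti-GZF1 (60553405 reads), a control with anti-GZF1 (94184865 reads), the Gzf1 knockout with anti-GZF1 (85933019 reads), wild type with an antibody to H3K27ac, a histone mark of active promoters and enhancers (40828764 reads), and input chromatin without antibody (10087804 reads). In RGM, a 129xCAST hybrid line, they were Gzf1-Flag clone 56, again an overexpressing clone, with anti-FLAG (66977435 reads) and wild type with anti-GZF1 (21824176 reads). Tagged GZF1 was expressed ectopically from an added gene, each anti-FLAG library came from 1 clone, and no anti-FLAG library of cells without the tag was analysed here. The Cas9 input is the only input and served both lines, and the labels do not say how the control differs from the wild type.

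Read density is the mean number of reads per bin divided by the library's mean over all autosomal bins, which ran from 3.93 reads in the input to 35.8 in the control. Intervals in parentheses are 95% exact intervals for counting error alone, and sequenced reads are not independent molecules. Chromosome 6 as a whole stood at a density of 1.35 in RGM anti-FLAG, 1.32 in RGM wild type and 1.26 in the control, but at 1.02 to 1.08 in the other 5 libraries, so the Hoxa values between libraries are also given relative to the flanks. Over Gzf1 itself, with 2 kb on each side, the density was 0.687 in the knockout and 0.971 in the control, a ratio of 0.707 (0.623 to 0.803). None of its 18 bins was empty in the knockout, where the lowest held 8 reads, and an edit shorter than a bin would not show in these values. At 10 stem cell marker genes the median log2 ratio of H3K27ac to input was 0.09, against 0.01 at 5 fibroblast genes and 0.02 at 6 genes of differentiated tissues, so this library hardly set the labelled cell type apart.

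The promoters show the CpG-rich sequence on which the pull-down densities are read. RefSeq (GRCm38.p6) gave 24 promoters for 22 of the 38 genes, each from 250 bases before to 50 bases after a transcription start. They held a median of 14.5 CpG dinucleotides, from 4 to 45, against a median of 7 over all 32851 promoters of the table. Below are those of Hoxd13 and Hoxd1, which lie in or next to bins with raised anti-GZF1 density, both promoters of Hoxa10, the described GZF1 target, and for contrast the CpG-poor promoter of Hoxa9, read 5′ to 3′ with CpG dinucleotides in capitals.
Hoxd13, chr2:74667975-74668274, plus strand: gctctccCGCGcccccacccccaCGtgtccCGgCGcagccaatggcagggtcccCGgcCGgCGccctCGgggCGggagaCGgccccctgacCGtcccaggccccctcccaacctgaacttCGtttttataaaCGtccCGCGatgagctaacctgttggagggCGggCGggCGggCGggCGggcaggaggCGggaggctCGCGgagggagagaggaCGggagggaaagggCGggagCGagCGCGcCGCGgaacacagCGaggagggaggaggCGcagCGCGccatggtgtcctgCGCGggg
Hoxd1, chr2:74762730-74763029, plus strand: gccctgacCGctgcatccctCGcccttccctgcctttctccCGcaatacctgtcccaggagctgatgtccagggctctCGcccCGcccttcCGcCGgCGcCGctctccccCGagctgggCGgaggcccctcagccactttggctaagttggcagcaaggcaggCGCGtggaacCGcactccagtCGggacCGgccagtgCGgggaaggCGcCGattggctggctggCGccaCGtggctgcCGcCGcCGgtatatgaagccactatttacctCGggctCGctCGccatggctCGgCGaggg
Hoxa10, chr6:52234890-52235189, minus strand: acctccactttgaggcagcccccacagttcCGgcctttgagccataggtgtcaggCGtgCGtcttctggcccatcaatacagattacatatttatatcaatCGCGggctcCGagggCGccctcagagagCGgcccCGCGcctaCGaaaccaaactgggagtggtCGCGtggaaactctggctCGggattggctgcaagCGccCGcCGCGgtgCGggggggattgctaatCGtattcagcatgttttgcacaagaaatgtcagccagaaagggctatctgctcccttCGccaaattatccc
Hoxa10, chr6:52240805-52241104, minus strand: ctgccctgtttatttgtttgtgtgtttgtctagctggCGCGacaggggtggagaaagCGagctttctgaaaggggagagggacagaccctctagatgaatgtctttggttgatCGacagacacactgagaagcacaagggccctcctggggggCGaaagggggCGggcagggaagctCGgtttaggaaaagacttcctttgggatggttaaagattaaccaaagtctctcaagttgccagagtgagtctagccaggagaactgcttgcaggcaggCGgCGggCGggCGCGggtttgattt
Hoxa9, chr6:52227321-52227620, minus strand: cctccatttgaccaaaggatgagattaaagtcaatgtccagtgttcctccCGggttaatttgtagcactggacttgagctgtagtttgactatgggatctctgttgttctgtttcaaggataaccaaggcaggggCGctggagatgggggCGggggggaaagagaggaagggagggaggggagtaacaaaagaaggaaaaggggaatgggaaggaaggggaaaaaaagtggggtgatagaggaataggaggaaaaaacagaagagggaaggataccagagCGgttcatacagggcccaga

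The Hoxd13 promoter held 37 CpG and that of Hoxd1 29, the 2 Hoxa10 promoters 21 and 12, and the Hoxa9 promoter 4. In the bin of the Hoxd13 start the density was 3.46 and 5.30 for anti-GZF1 in wild-type cells of the Cas9 and RGM lines, 2.29 in the input, 0.728 for the control and 0.846 for the knockout. In the bin of the Hoxa9 start it was 2.42 and 1.51 for anti-GZF1 in wild-type cells, 3.82 in the input, 1.22 for the control and 0.805 for the knockout. These 2 bins do not stand for all starts. In the bin of the Hoxd1 start, with 29 CpG, the density was 2.05 and 2.92, against 2.88 in the input, so it was below the input in the Cas9 line. Of the other promoters with 4 CpG, the start bin stood above the input at Hoxd11 in RGM (3.72 against 2.92) and at Hoxd4 in the Cas9 line (0.963 against 0.790). Across the 24 start bins, Spearman's rho between the number of CpG and the density was 0.44 and 0.60 for anti-GZF1 in wild-type cells of the Cas9 and RGM lines, 0.31 and 0.40 with anti-FLAG, 0.50 with H3K27ac, -0.04 in the input and -0.07 in both the control and the knockout. These describe promoters of 1 library each, which share depth and base composition.

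The start bins were denser than the other 366 bins of the windows in every library but the control and the knockout. Their mean reads per bin were 1.32 (1.252 to 1.39) times those of the other bins with Cas9 wild-type anti-GZF1 and 1.59 (1.47 to 1.71) in RGM. With anti-FLAG the ratio was 1.11 (1.05 to 1.18) and 1.39 (1.33 to 1.46), with H3K27ac 1.26 (1.17 to 1.36) and in the input 1.32 (1.15 to 1.52). The control gave 1.02 (0.958 to 1.08) and the knockout 0.937 (0.877 to 1.001). The input interval overlapped those of H3K27ac, Cas9 wild-type anti-GZF1, both RGM libraries and Cas9 anti-FLAG. The letters TGCGC, with which the binding sequence described for GZF1 begins, occurred on either strand in 9 of 24 (37.5%) and in 30.4% of all promoters. Among the printed promoters that of Hoxd13 held them, and neither Hoxa10 promoter did. The full sequence was found in 0 of the 24 and in 4 of all 32851 promoters. TGCGC itself holds a CpG, and the part of the higher CpG number of Hox promoters in its share was not tested.

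The first question was whether the Hox clusters carried more pull-down reads than the DNA around them. They did in all 4 libraries of tagged GZF1 or wild-type anti-GZF1, but a part of that excess was also in the input. Over all 4 clusters the density was 1.76 with Cas9 anti-FLAG, 2.19 with RGM anti-FLAG, 2.03 and 2.42 for anti-GZF1 in wild-type cells of the Cas9 and RGM lines, 1.71 with H3K27ac and 1.75 in the input. The control and the knockout both stood at 1.27 to 1.28, the lowest of the 8. Relative to the flanks the clusters stood at 1.53 (1.49 to 1.57) with RGM wild-type anti-GZF1, 1.39 (1.37 to 1.42) with RGM anti-FLAG, 1.34 (1.31 to 1.36) with Cas9 wild-type anti-GZF1 and 1.247 (1.22 to 1.27) with Cas9 anti-FLAG. The same ratio was 1.20 (1.17 to 1.23) with H3K27ac, 1.18 (1.13 to 1.24) in the input, 1.03 (1.01 to 1.05) in the knockout and 1.02 (0.997 to 1.03) in the control. The intervals of RGM anti-FLAG and both wild-type anti-GZF1 libraries lay above that of the input, those of Cas9 anti-FLAG and H3K27ac overlapped it, and those of the control and the knockout lay below it.

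**Figure D1:**
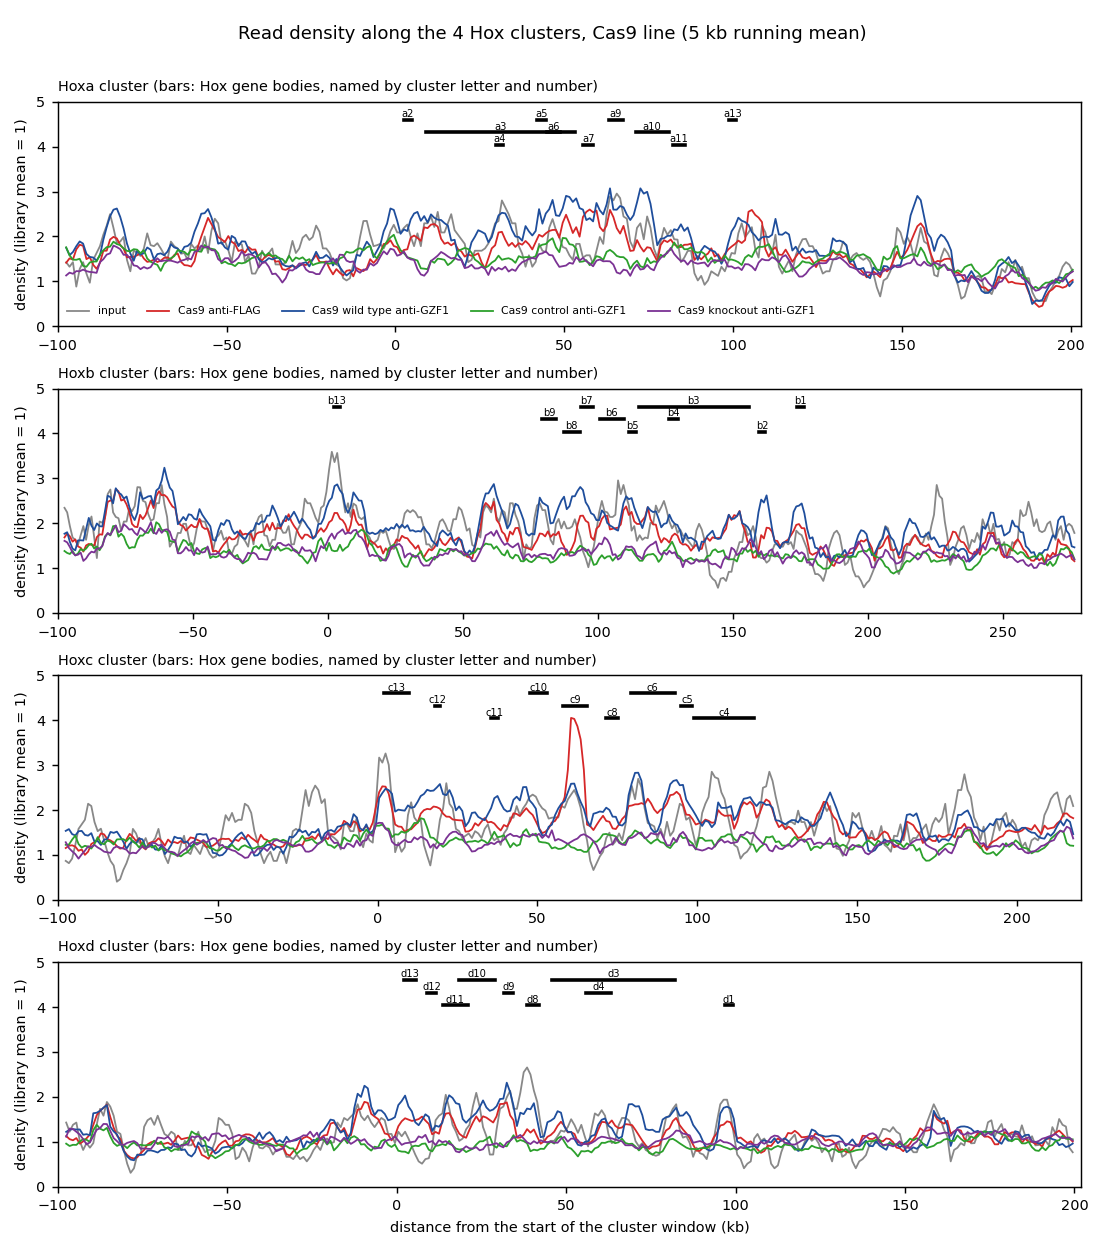
Read density (library mean = 1, running mean over 5 kb) against distance from the start of each cluster window in kb, for 5 libraries of the Cas9 line; black bars are the Hox gene bodies. Anti-GZF1 in wild type (blue) runs above the control and the knockout (green, purple) inside the clusters, and anti-FLAG (red) has 1 tall peak, at Hoxc9.

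The clusters differed. Hoxd held the highest ratio to its flanks, 1.75 (1.64 to 1.87) with RGM wild-type anti-GZF1, against 1.501 (1.44 to 1.56) with RGM anti-FLAG, 1.41 (1.35 to 1.47) with Cas9 wild-type anti-GZF1, 1.21 (1.15 to 1.26) with Cas9 anti-FLAG and 1.30 (1.16 to 1.46) in the input. Hoxa stood at 1.61 (1.53 to 1.70), 1.46 (1.42 to 1.51), 1.42 (1.37 to 1.47) and 1.32 (1.27 to 1.37) in the same order, with 1.27 (1.16 to 1.40) in the input. In both clusters only RGM libraries had intervals above that of the input: wild-type anti-GZF1 in both, and anti-FLAG at Hoxa. Hoxc was the cluster where all 4 of these libraries had intervals above that of the input, which stood at 1.16 (1.06 to 1.28), with 1.60 (1.51 to 1.70), 1.34 (1.29 to 1.38), 1.39 (1.34 to 1.44) and 1.38 (1.33 to 1.42). Hoxb had the lowest ratios to its flanks, 1.24 (1.17 to 1.31), 1.28 (1.24 to 1.33), 1.16 (1.12 to 1.20) and 1.09 (1.05 to 1.12), and the lowest input, 1.04 (0.947 to 1.13). There both RGM libraries had intervals above that of the input. Divided by the input ratio, RGM anti-FLAG stood at 1.24 at Hoxb, the highest of the 4 clusters. RGM wild-type anti-GZF1 divided in this way stood at 1.20, the lowest of them. The control lay between 0.950 (0.910 to 0.992) at Hoxd and 1.08 (1.05 to 1.12) at Hoxc, and the knockout between 0.941 (0.901 to 0.982) and 1.11 (1.07 to 1.15) at the same clusters. In each cluster the intervals of the control and the knockout overlapped.

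**Figure D2:**
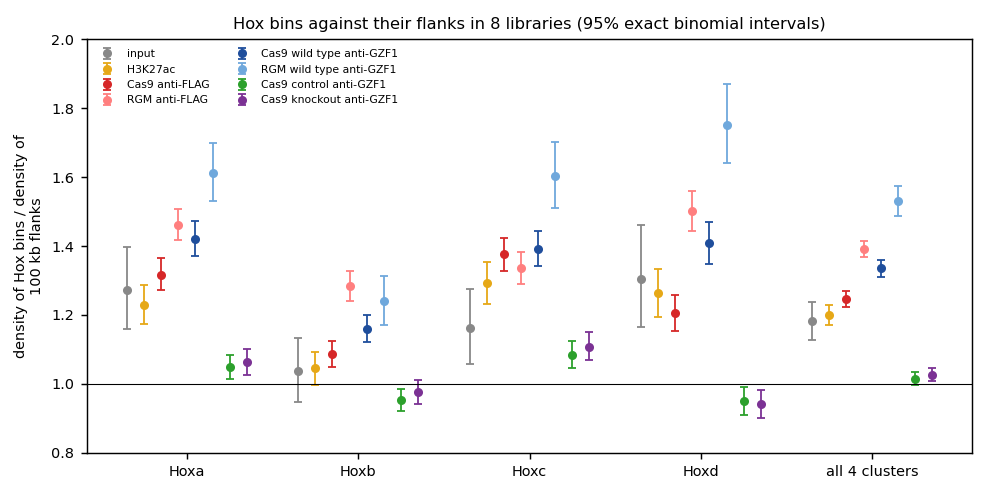
Density of the Hox bins divided by that of the 100 kb flanks (vertical axis, starts at 0.8) for each cluster and all 4 together; points are single libraries and bars their 95% exact binomial intervals. The control and the knockout sit near 1 in every cluster, and RGM wild-type anti-GZF1 reaches 1.75 at Hoxd.

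Gene by gene, the excess was spread over the clusters and rarely large. The 95% interval of the density over the 100 kb on each side of the gene itself lay above 1 in 22 of the 38 Hox genes with Cas9 anti-FLAG (36.8% of all genes), 30 with RGM anti-FLAG (40.9%), 28 with Cas9 wild-type anti-GZF1 (38.4%) and 27 with RGM wild type (34.3%). The counts were 12 in the input (18.8%), 16 with H3K27ac (34.1%), 4 for the control (25.3%) and 6 for the knockout (25.1%). In the control and the knockout the share of Hox genes was below that of all genes, and the own flanks of a Hox gene include other Hox genes. A window of at least 1.5 times its own flanks was rare. Hoxc9 alone reached it with anti-FLAG, in both lines (1 of 38 with Cas9, 4.18% of all genes, and 1 of 38 with RGM, 6.84%). With wild-type anti-GZF1 none reached it in the Cas9 line (6.3% of all genes) and 5 in RGM (12.3%), Hoxa9, Hoxd9, Hoxd10, Hoxd11 and Hoxd12. The input had 4 (7.36%), Hoxa9, Hoxb13, Hoxd8 and Hoxd9, and H3K27ac, the control and the knockout had none (6.1%, 0.822% and 0.811%). Under this rule the Hox share was slightly above the background in the input, about equal to it in RGM wild type and below it in the other 6 libraries. With own flanks of 50 and 200 kb, 1 (11.7% of all genes) and 15 (13.2%) Hox genes reached it in RGM wild type.

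Against the input, called at a log2 ratio of 0.5 or more with 0.5 added to both densities, 13 of 38 Hox genes passed with RGM wild-type anti-GZF1 (10.3% of all genes), 7 with RGM anti-FLAG (6.67%), 5 with Cas9 wild-type anti-GZF1 (3.4%) and 0 with Cas9 anti-FLAG (2.7%). The RGM wild-type genes were Hoxa3, Hoxa5, Hoxa6, Hoxa7, Hoxa9, Hoxa10, Hoxa11, Hoxa13, Hoxc12, Hoxd10, Hoxd11, Hoxd12 and Hoxd13, and the RGM anti-FLAG genes Hoxa5, Hoxa6, Hoxa7, Hoxa10, Hoxa13, Hoxd12 and Hoxd13. None of them was a Hoxb gene, and 8 and 5 of them were Hoxa genes, on a chromosome that was denser as a whole in RGM. Chromosome 2, with Hoxd, stood at 1.03 in RGM anti-FLAG and 1.01 in RGM wild type, against 0.908 in the input. For chromosome 11, with Hoxb, the values were 1.23, 1.27 and 1.32, and for chromosome 15, with Hoxc, 0.999, 1.01 and 1.11. Scaled to the chromosome, 9 Hox genes (9.26% of all genes) passed with RGM wild type and 3 (5.28%) with RGM anti-FLAG. The Cas9 wild-type genes were Hoxa7, Hoxb2, Hoxb7, Hoxc11 and Hoxd13, so Hoxa7 and Hoxd13 passed in both lines. H3K27ac passed at Hoxd13 alone (3.18% of all genes), and the control and the knockout at none (9.64% and 9.77%). The median log2 ratio over the 38 genes was 0.39 with RGM wild-type anti-GZF1, 0.25 with RGM anti-FLAG, 0.17 with Cas9 wild-type anti-GZF1, -0.02 with Cas9 anti-FLAG and -0.02 with H3K27ac. Over all genes these medians were 0.05, 0.03, 0.03, 0.00 and 0.01. In the control and the knockout the Hox medians were -0.35 and -0.31, below the input, and those of all genes -0.10 and -0.09.

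**Figure D3:**
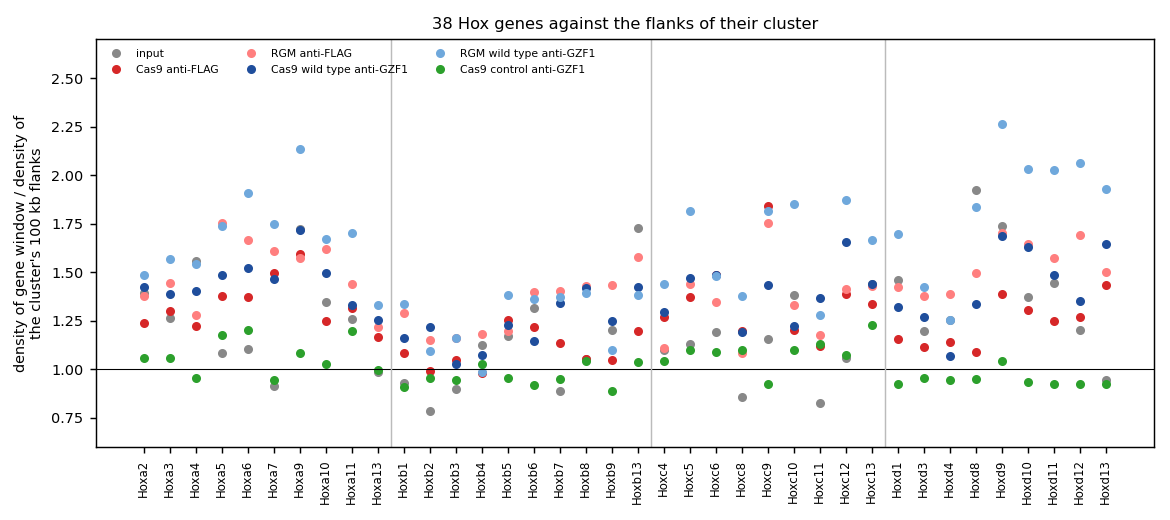
Density of each of the 38 Hox windows divided by that of the 100 kb flanks of its cluster (vertical axis) in 6 libraries; grey lines part the clusters, and the horizontal line marks equality. The control points (green) lie near 1, Hoxc9 is the highest gene with anti-FLAG in both lines, and the Hoxd9 to Hoxd13 genes are high with RGM wild-type anti-GZF1 (light blue).

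By paralog group, the genes of the tail end stood highest. With the flanks of the cluster as the reference, as in all gene values from here on, the median was 1.14 for the 11 genes of groups 1 to 4, 1.254 for the 11 of groups 5 to 8 and 1.29 for the 16 of groups 9 to 13 with Cas9 anti-FLAG, and 1.29, 1.43 and 1.54 with RGM anti-FLAG. With wild-type anti-GZF1 the medians were 1.27, 1.42 and 1.44 in the Cas9 line and 1.43, 1.48 and 1.84 in RGM. The order was the same in these 4 libraries, but the highest group was also the highest in the input (1.19, 1.10 and 1.30). The control had 0.954, 1.04 and 1.03 and the knockout 0.972, 1.04 and 1.03. The genes of a group come from the 4 clusters, so the groups also differ in their share of each cluster. The order of the 38 genes was alike between some libraries and less so between others. Spearman's rho between the Cas9 and RGM lines was 0.57 for anti-FLAG and 0.76 for wild-type anti-GZF1, and between the antibodies 0.75 in the Cas9 line and 0.72 in RGM. With the input it was 0.19 and 0.41 for anti-FLAG in the Cas9 and RGM lines and 0.27 and 0.45 for anti-GZF1 in wild-type cells. With H3K27ac it was 0.51 for Cas9 anti-FLAG and 0.54 for Cas9 wild-type anti-GZF1. Between the control and the knockout it was 0.67, though neither had much excess over the flanks. Between Cas9 wild-type anti-GZF1 and the control, of the same line and antibody, it was 0.29. Windows overlap and share base composition, so these values are a description.

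In the Hoxa cluster the 3 genes with the highest anti-FLAG density in the lower of the 2 lines were Hoxa9, Hoxa7 and Hoxa5, and the lowest was Hoxa13. Hoxa9 (chromosome 6, 52223097 to 52227370), which acts in blood progenitors and in the limb, held a density of 2.32 and 3.07 with anti-FLAG in the Cas9 and RGM lines, 2.78 and 4.20 with anti-GZF1 in the wild-type cells of both lines, 1.60 in the control, 1.35 in the knockout, 2.65 in the input and 2.11 with H3K27ac. The Hoxa9 window was raised in the input too, the lowest 2 values being the control and the knockout. Over the flanks it stood at 1.59 (1.46 to 1.73) and 1.57 (1.46 to 1.69) with anti-FLAG in the Cas9 and RGM lines, and at 1.72 (1.38 to 2.13) in the input. Hoxa7 (chromosome 6, 52215623 to 52218573), a gene of trunk patterning, held 2.18 and 3.15 with anti-FLAG in the Cas9 and RGM lines, 2.37 and 3.44 with anti-GZF1 in the wild-type cells of both lines, 1.40 in the control, 1.42 in the knockout, 1.41 in the input and 1.76 with H3K27ac. Here the input was among the lowest values, and all 4 libraries of tagged GZF1 or wild-type anti-GZF1 were above it. Over the flanks Hoxa7 stood at 1.49 (1.36 to 1.64) and 1.61 (1.49 to 1.74) with anti-FLAG, 1.46 (1.33 to 1.61) and 1.75 (1.53 to 1.99) for anti-GZF1 in wild-type cells and 0.914 (0.657 to 1.23) in the input. Of the genes described in full, it was the 1 where all 4 of these intervals lay above that of the input. Hoxa5 (chromosome 6, 52201754 to 52204587), needed for the airways and the neck and upper trunk skeleton, held 2.01 and 3.42 with anti-FLAG in the Cas9 and RGM lines, 2.40 and 3.43 with anti-GZF1 in the wild-type cells of both lines, 1.74 in the control, 1.61 in the knockout, 1.67 in the input and 2.03 with H3K27ac. Its anti-FLAG ratios to the flanks were 1.38 (1.248 to 1.52) and 1.75 (1.62 to 1.89), with 1.08 (0.798 to 1.42) in the input. Hoxa13 (chromosome 6, 52258853 to 52260880), a gene of the digits and the urogenital tract, held 1.70 and 2.37 with anti-FLAG in the Cas9 and RGM lines, 2.03 and 2.62 with anti-GZF1 in the wild-type cells of both lines, 1.47 in the control, 1.35 in the knockout, 1.52 in the input and 2.004 with H3K27ac. Hoxa13 stood at 1.17 (1.04 to 1.30) and 1.22 (1.10 to 1.34) over the flanks with anti-FLAG, and its input at 0.984 (0.711 to 1.35). The other Hoxa genes, Hoxa2, Hoxa3, Hoxa4, Hoxa6, Hoxa10 and Hoxa11, lay between 1.22 and 1.37 in the lower line.

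Hoxa10 (chromosome 6, 52231197 to 52240854), which patterns the lumbar region and the uterus, is the Hox gene described as a GZF1 target. It held a density of 1.82 and 3.16 with anti-FLAG in the Cas9 and RGM lines, 2.43 and 3.29 with anti-GZF1 in the wild-type cells of both lines, 1.52 in the control, 1.43 in the knockout, 2.07 in the input and 1.91 with H3K27ac. The 2 RGM libraries were the highest, on a chromosome that was denser as a whole in that line, and the control and the knockout were the lowest. Over the flanks it stood at 1.246 (1.15 to 1.35) with Cas9 anti-FLAG, 1.62 (1.52 to 1.72) with RGM anti-FLAG, 1.498 (1.39 to 1.61) with Cas9 wild-type anti-GZF1, 1.67 (1.4996 to 1.85) with RGM wild-type anti-GZF1, 1.24 (1.12 to 1.37) with H3K27ac and 1.35 (1.10 to 1.63) in the input. All of these intervals overlapped that of the input. The control stood at 1.03 (0.953 to 1.11) and the knockout at 1.08 (0.998 to 1.17). The knockout to control ratio of Hoxa10 was 0.944 (0.849 to 1.05), and 1.05 (0.947 to 1.17) relative to the flanks. The control had no clear excess over the flanks here, so this ratio cannot show whether anti-GZF1 reads at Hoxa10 depend on Gzf1. In the start bins of the 2 printed Hoxa10 promoters the densities with Cas9 wild-type anti-GZF1 were 4.55 and 2.89, with Cas9 anti-FLAG 2.35 and 3.08, and in the input 2.55 in both. In RGM they were 4.53 and 4.30 for anti-GZF1 in wild-type cells and 4.75 and 3.77 for anti-FLAG. The promoter with 21 CpG had the higher anti-GZF1 value in both lines, while with anti-FLAG the one with 12 CpG was higher in the Cas9 line and lower in RGM.

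In the Hoxb cluster the genes with the highest anti-FLAG values were Hoxb6, Hoxb5 and Hoxb13, and the lowest was Hoxb4. In the order Cas9 anti-FLAG, RGM anti-FLAG, Cas9 wild-type anti-GZF1, RGM wild-type anti-GZF1, control, knockout, input and H3K27ac, Hoxb6 (chromosome 11, 96292814 to 96301569), a trunk gene, held densities of 2.03, 2.30, 2.13, 2.39, 1.24, 1.45, 2.35 and 1.54. Hoxb5 (chromosome 11, 96303512 to 96306121), which acts in the neural crest of the gut, held 2.10, 1.97, 2.29, 2.42, 1.29, 1.38, 2.09 and 1.80. In both genes the input lay within the range of the 4 libraries of tagged GZF1 or wild-type anti-GZF1. Hoxb13 (chromosome 11, 96194316 to 96196610), a gene of the tail and the prostate that lies apart from its cluster, held 1.997, 2.59, 2.65, 2.42, 1.41, 1.68, 3.08 and 2.11. Its input was the highest input density of any Hox window. Hoxb4 (chromosome 11, 96318267 to 96321638), which acts in blood stem cells, held 1.64, 1.94, 1.996, 1.73, 1.39, 1.28, 2.01 and 1.65, and neither anti-FLAG library stood above its input. Over the flanks, with anti-FLAG in the Cas9 and RGM lines, Hoxb6 stood at 1.22 (1.13 to 1.31) and 1.40 (1.30 to 1.502), and its input at 1.32 (1.09 to 1.58). Hoxb5 stood at 1.254 (1.14 to 1.38) and 1.20 (1.08 to 1.32), and Hoxb13 at 1.19 (1.07 to 1.32) and 1.58 (1.44 to 1.73) with an input of 1.73 (1.38 to 2.16). Hoxb4 stood at 0.980 (0.878 to 1.09) and 1.18 (1.07 to 1.30). Each of these anti-FLAG intervals overlapped that of the same gene's input, or, at Hoxb13 in the Cas9 line, lay below it. The other Hoxb genes, Hoxb1, Hoxb2, Hoxb3, Hoxb7, Hoxb8 and Hoxb9, lay between 0.988 and 1.13 in the lower line.

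In the Hoxc cluster Hoxc9, Hoxc12 and Hoxc5 led with anti-FLAG, and Hoxc8 was the lowest. Hoxc9 (chromosome 15, 102977032 to 102984444), which sets the identity of thoracic motor neurons, held densities of 2.66, 2.65, 2.15, 2.60, 1.14, 1.36, 1.79 and 1.76 in the order above. It was the 1 Hox gene whose anti-FLAG density exceeded that of wild-type anti-GZF1 in the Cas9 line beyond counting error, with a ratio of 1.24 (1.12 to 1.38). Hoxc9 stood at 1.84 (1.72 to 1.98) and 1.75 (1.63 to 1.88) over the flanks with anti-FLAG and at 1.16 (0.911 to 1.44) in the input. Hoxc12 (chromosome 15, 102936826 to 102938609), a tail-end gene, held 2.003, 2.14, 2.48, 2.67, 1.32, 1.27, 1.64 and 2.09, and Hoxc5 (chromosome 15, 103014008 to 103017429), a gene of the neck and upper trunk, 1.98, 2.17, 2.20, 2.60, 1.35, 1.33, 1.75 and 1.95. In both the control and the knockout were the lowest, and H3K27ac was above the input. Hoxc8 (chromosome 15, 102990539 to 102994275), which acts in brachial motor neurons, held 1.73, 1.64, 1.79, 1.97, 1.36, 1.20, 1.33 and 1.34. The anti-FLAG ratios to the flanks were 1.39 (1.246 to 1.53) and 1.42 (1.28 to 1.57) at Hoxc12, 1.37 (1.24 to 1.51) and 1.44 (1.31 to 1.58) at Hoxc5 and 1.20 (1.08 to 1.32) and 1.08 (0.977 to 1.20) at Hoxc8. The other Hoxc genes, Hoxc4, Hoxc6, Hoxc10, Hoxc11 and Hoxc13, lay between 1.11 and 1.35 in the lower line.

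In the Hoxd cluster Hoxd13, Hoxd9 and Hoxd10 led with anti-FLAG, and Hoxd8 was the lowest. Hoxd13 (chromosome 2, 74668225 to 74671603), the gene of the digits whose mutations fuse fingers and toes, held densities of 1.55, 1.78, 1.80, 2.28, 0.881, 1.01, 0.987 and 1.77 in the same order. Its input was the lowest of any Hox window, and every pull-down other than the control and the knockout was well above it. Hoxd13 was the only member called over the input with H3K27ac. Hoxd9 (chromosome 2, 74697763 to 74700208), a trunk and limb gene, held 1.503, 2.02, 1.84, 2.67, 0.991, 1.01, 1.81 and 1.249, and Hoxd10 (chromosome 2, 74684273 to 74695106), which acts in lumbar motor neurons, 1.41, 1.95, 1.78, 2.40, 0.888, 0.857, 1.43 and 1.23. Both were highest with RGM wild-type anti-GZF1. Hoxd8 (chromosome 2, 74704615 to 74707933) held 1.18, 1.77, 1.46, 2.17, 0.905, 1.002, 2.01 and 1.42, with a high input. Over the flanks, with anti-FLAG in the Cas9 and RGM lines, Hoxd13 stood at 1.43 (1.28 to 1.60) and 1.502 (1.35 to 1.67), with 0.944 (0.637 to 1.35) in the input and 1.63 (1.42 to 1.86) with H3K27ac. Hoxd9 stood at 1.39 (1.24 to 1.55) and 1.70 (1.54 to 1.88) and its input at 1.74 (1.30 to 2.27). Hoxd10 stood at 1.31 (1.20 to 1.42) and 1.64 (1.53 to 1.77), and Hoxd8 at 1.09 (0.956 to 1.23) and 1.49 (1.34 to 1.66) with an input of 1.92 (1.46 to 2.48). At Hoxd13 both wild-type anti-GZF1 ratios, 1.65 (1.47 to 1.84) and 1.93 (1.63 to 2.27), had intervals above that of the input, at Hoxd10 the RGM wild-type ratio of 2.03 (1.81 to 2.29) did, and at Hoxd8 the Cas9 anti-FLAG interval lay below it. The other Hoxd genes, Hoxd1, Hoxd3, Hoxd4, Hoxd11 and Hoxd12, lay between 1.11 and 1.27 in the lower line.

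Much of the excess at Hoxc9 was a narrow peak inside the gene. The bin at chromosome 15, 102981001 to 102982000, lies 3.97 to 4.97 kb from the lower end of the Hoxc9 body. It held 204 reads with Cas9 anti-FLAG, 171 with RGM anti-FLAG, 80.0 and 39.0 for anti-GZF1 in wild-type cells of the Cas9 and RGM lines, 41.9 in the control, 43.0 in the knockout, 46.4 with H3K27ac and 8.10 in the input. As densities these were 7.49, 6.46, 3.39, 4.53, 1.17, 1.31, 2.06 and 2.92 in the order Cas9 anti-FLAG, RGM anti-FLAG, Cas9 wild-type anti-GZF1, RGM wild-type anti-GZF1, control, knockout, input and H3K27ac. Both anti-FLAG libraries stood far above the other 6, wild-type anti-GZF1 came next, and the control and the knockout were the lowest. The log2 ratio to the median of the 10 kb on each side, with 0.5 added to both, was 1.77 and 1.52 with anti-FLAG, 0.65 and 0.78 for anti-GZF1 in wild-type cells, -0.07 in the control, -0.004 in the knockout, 0.72 with H3K27ac and 0.34 in the input. Of 2462755 autosomal bins 342 had a higher anti-FLAG value in the lower of the 2 lines. The bin's knockout to control ratio was 1.12 (0.710 to 1.74).

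The bin before it was raised as well, to densities of 4.69 and 3.67 with anti-FLAG in the Cas9 and RGM lines, and the bin after it to 4.24 in RGM against 2.38 in the Cas9 line and 3.06 in the input. The central bin and the bin before it together stood at 4.21 (3.76 to 4.70) times the cluster flanks with Cas9 anti-FLAG, 3.35 (2.96 to 3.79) with RGM anti-FLAG, 1.98 (1.66 to 2.34) with Cas9 wild-type anti-GZF1, 2.60 (1.996 to 3.33) with RGM wild-type anti-GZF1, 1.70 (1.34 to 2.13) with H3K27ac and 1.4996 (0.874 to 2.35) in the input. In the control they stood at 1.01 (0.809 to 1.24) and in the knockout at 1.16 (0.941 to 1.43). Without these 2 bins, chosen after their values were seen, the rest of the Hoxc9 window stood at 1.37 (1.254 to 1.496) and 1.43 (1.31 to 1.56) with anti-FLAG in the Cas9 and RGM lines, so the peak made up much but not all of the excess of Hoxc9.

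**Figure D4:**
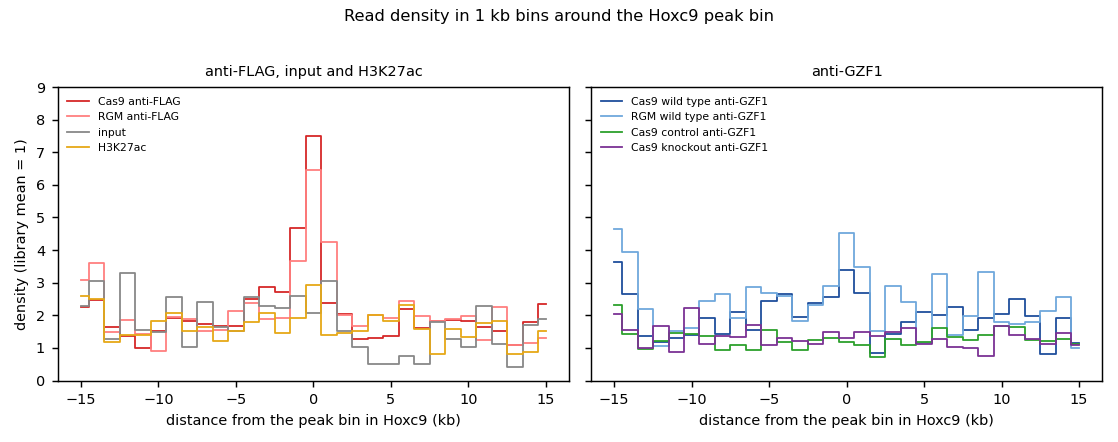
Read density (library mean = 1) in 1 kb bins against distance in kb from the peak bin in Hoxc9, with anti-FLAG, input and H3K27ac on the left and the 4 anti-GZF1 libraries on the right. The anti-FLAG libraries reach 7.49 and 6.46 in the centre bin, wild-type anti-GZF1 3.39 and 4.53, and the control and the knockout stay flat.

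This bin was the only 1 of the 390 at a local log2 value of 1 or more with anti-FLAG in both lines (0.144% of all bins), and 3 were with wild-type anti-GZF1 (0.38%), in Hoxc13, Hoxd1 and Hoxd13. In single libraries the counts were 2 with Cas9 anti-FLAG (0.231%), 5 with RGM anti-FLAG (0.529%), 3 with Cas9 wild-type anti-GZF1 (0.482%), 14 with RGM wild-type anti-GZF1 (2.32%), 5 with H3K27ac (0.545%), 21 in the input (7.48%) and 0 in the control (0.0398%) and the knockout (0.045%). The shallow libraries, input and RGM wild type, had the highest shares among all bins too. In the 800 flank bins 1 was called with anti-FLAG in both lines and 5 with wild-type anti-GZF1.

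The strongest of the anti-GZF1 bins lay at the start of Hoxd1, a hindbrain and sensory neuron gene, at chromosome 2, 74763001 to 74764000. In the order Cas9 anti-FLAG, RGM anti-FLAG, Cas9 wild-type anti-GZF1, RGM wild-type anti-GZF1, control, knockout, input and H3K27ac, its densities were 2.09, 3.41, 3.62, 5.21, 0.918, 1.15, 2.73 and 2.93. Both wild-type anti-GZF1 libraries and RGM anti-FLAG were above the input, and the control and the knockout were far below. The local log2 values were 1.48 and 1.78 with wild-type anti-GZF1, 0.80 and 1.24 with anti-FLAG, 1.35 in the input, 1.18 with H3K27ac, 0.06 for the control and 0.24 for the knockout. Among all autosomal bins 1324 were higher by the anti-GZF1 value of the lower wild-type line. The bin of the Hoxd13 promoter, at chromosome 2, 74668001 to 74669000, had local log2 values of 1.001 and 1.22 with wild-type anti-GZF1, 0.62 and 1.03 with anti-FLAG, 0.88 in the input, -0.11 for the control and -0.13 for the knockout. The bin in Hoxc13, a gene of hair and nails, at chromosome 15, 102921001 to 102922000, had 1.05 and 1.65 with wild-type anti-GZF1, 0.86 and 1.28 with anti-FLAG and 1.59 in the input. In all 3 bins the input was raised as well, at Hoxc13 above the Cas9 wild-type value, and its part in the anti-GZF1 values was not tested.

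The next bins were weaker. For anti-FLAG in the Cas9 and RGM lines, the leading bins by local log2 value were, on chromosome 6, Hoxa7 at 52217001 to 52218000 (0.92 and 0.89, input -0.25) and Hoxa3 at 52170001 to 52171000 (0.75 and 0.73, input 1.003). On chromosome 11 they were Hoxb2 at 96354001 to 96355000 (0.57 and 0.72, input -0.26) and Hoxb13 at 96194001 to 96195000 (0.44 and 0.84, input 0.86), and on chromosome 2 Hoxd9 at 74698001 to 74699000 (0.89 and 0.93, input 0.46) beside the Hoxd1 bin. The Hoxa7 and Hoxb2 bins had an input below its local level, while at Hoxa3 and Hoxb13 the input was as high as the pull-down or higher. The Hoxa7 and Hoxb2 inputs rest on 6 and 5 reads, at densities of 1.53 (0.561 to 3.33) and 1.27 (0.414 to 2.97). Counting error at that depth is too wide to place them below their local level. For wild-type anti-GZF1 the leading bins on chromosome 6 were Hoxa5 at 52204001 to 52205000 (0.85 and 0.91, input 0.47), which also falls in the Hoxa3 and Hoxa6 bodies, and the side of Hoxa9 at 52221001 to 52222000 (0.78 and 0.79, input 0.72). On chromosome 11 they were Hoxb1 at 96366001 to 96367000 (0.89 and 1.21, input -0.42) and Hoxb9 at 96271001 to 96272000 (0.74 and 0.72, input 0.80), and on chromosome 15 Hoxc6 at 102999001 to 103000000 (0.81 and 1.15, input 0.67). Hoxb1, a hindbrain gene, was the 1 of these bins whose input was below its local level. That input rests on 4 reads, a density of 1.02 (0.278 to 2.61), so it too is uncertain.

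The knockout was compared with the control, both with anti-GZF1. Over all clusters together the control stood at only 1.02 (0.997 to 1.03) times the flanks. With so little excess to lower, these ratios cannot show which anti-GZF1 reads depend on Gzf1. Over the Hox clusters as a whole the knockout to control ratio was 1.002 (0.981 to 1.02) over all 390 bins, 0.991 in the flanks, and 1.01 (0.990 to 1.03) relative to the flanks. By cluster the latter was 1.01 (0.973 to 1.05) at Hoxa, 1.02 (0.984 to 1.07) at Hoxb, 1.02 (0.980 to 1.06) at Hoxc and 0.991 (0.942 to 1.04) at Hoxd, with 1 inside each interval. The unadjusted ratio of Hoxa was 0.908 (0.872 to 0.945), and that of its flanks 0.896. With 1 library each, a difference between cell populations and one between preparations cannot be told apart. The control itself stood above its flanks at Hoxa, with a ratio of 1.05 (1.01 to 1.08), and at Hoxc, with 1.08 (1.05 to 1.12), and below them at Hoxb, with 0.953 (0.920 to 0.986), and at Hoxd, with 0.950 (0.910 to 0.992). The knockout stood at 1.06 (1.02 to 1.10) at Hoxa and 1.11 (1.07 to 1.15) at Hoxc. At no Hox gene did the control exceed the knockout by 25% or more (7.97% of all genes), and at none did the knockout exceed the control by 25% or more (9.16%). The median ratio of the 38 genes was 0.999, from 0.826 at Hoxa6 to 1.20 at Hoxc9, and that of all genes 1.002. The interval lay below 1 at 4 genes, Hoxa3, Hoxa6, Hoxa9 and Hoxa11 (18.5% of all genes), and above 1 at 5, Hoxb6, Hoxb13, Hoxc9, Hoxd3 and Hoxd4 (19.2%). Divided by the flank ratio, the values with an interval above 1 were 1.14 (1.02 to 1.27) at Hoxb6, 1.17 (1.005 to 1.35) at Hoxb13 and 1.22 (1.08 to 1.38) at Hoxc9, and the value with an interval below 1 was 0.872 (0.767 to 0.993) at Hoxd10. Such ratios to the flank ratio were not computed for all genes. Hoxc9 was the highest of the 38 ratios. Without the 2 bins of its anti-FLAG peak, the window stood at 0.907 (0.818 to 1.002) over the cluster flanks in the control. In the knockout this value was 1.12 (1.02 to 1.23). The peak bin itself had a ratio of 1.12 (0.710 to 1.74), and the control had no peak there (local log2 value -0.07).

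**Figure D5:**
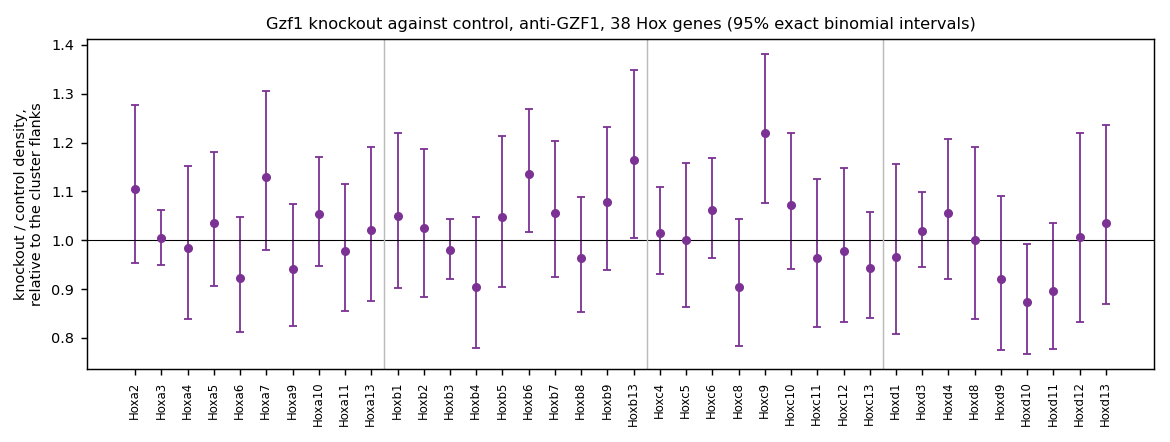
Knockout to control ratio of the anti-GZF1 density in each of the 38 Hox windows, divided by that of the flanks of its cluster (vertical axis, linear), with 95% exact binomial intervals. All but 4 genes have 1 inside the interval, a count not made for all genes, and Hoxc9 is the highest.

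Single bins were compared in the same way. Of 345 Hox bins with 30 or more control reads, 19 (5.51%) had a knockout to control interval below 1 and 10 (2.9%) above 1, and of all such autosomal bins 9.41% and 2.86%. The cut selects on the library divided by, whose mean was 35.8 reads per bin, and this favours ratios below 1. The shares below and above 1 are therefore not on equal terms, and the extremes that follow were taken under the same cut. The lowest ratios per cluster were 0.580 (0.363 to 0.913) in Hoxa4, 0.504 (0.296 to 0.853) in Hoxb4, 0.530 (0.322 to 0.895) in Hoxc8 and 0.457 (0.232 to 0.816) in Hoxd10. The highest were 1.63 (1.09 to 2.47) in Hoxa10, 1.90 (1.22 to 2.90) in Hoxb3, 1.83 (1.18 to 2.93) beside Hoxc9 and 1.63 (1.0003 to 2.63) in Hoxd11. Each of these 8 bins is the extreme of its cluster, and in none of them did wild-type anti-GZF1 reach a local log2 value of 1. In the Hoxd1, Hoxd13 and Hoxc13 bins the ratio was 1.248 (0.764 to 2.06), 1.16 (0.661 to 2.08) and 1.14 (0.788 to 1.65).

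The larger difference among the anti-GZF1 libraries of the Cas9 line was between wild type and control. Over all Hox bins the ratio was 1.59 (1.56 to 1.62), in the flanks 1.21, and relative to the flanks 1.32 (1.29 to 1.34). All 38 genes had the interval above 1 (49.3% of all genes), with a median of 1.63 against 1.13 over all genes, from 1.22 at Hoxa11 to 2.04 at Hoxd13. After division by the flank ratio 33 genes had the interval above 1, with a median of 1.34. That ratio was not computed for all genes, so the count has no background share. By cluster the ratio relative to the flanks was 1.48 (1.41 to 1.56) at Hoxd, 1.36 (1.30 to 1.41) at Hoxa, 1.28 (1.23 to 1.34) at Hoxc and 1.22 (1.17 to 1.27) at Hoxb. Hoxd thus differed the most and Hoxb the least. The depth of the 2 libraries was 60553405 and 94184865 reads, and how it and the preparation bear on this ratio was not tested.

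Between the lines, RGM stood above Cas9 with both antibodies. With anti-FLAG the ratio over all Hox bins was 1.24 (1.22 to 1.27), with 1.11 in the flanks and 1.12 (1.09 to 1.14) relative to them. With wild-type anti-GZF1 it was 1.20 (1.16 to 1.23), 1.04 and 1.15 (1.12 to 1.18). Relative to the flanks the anti-FLAG ratio was 1.245 (1.19 to 1.30) at Hoxd, 1.18 (1.14 to 1.23) at Hoxb, 1.11 (1.07 to 1.15) at Hoxa and 0.970 (0.934 to 1.01) at Hoxc, and the anti-GZF1 ratio 1.24 (1.17 to 1.32), 1.07 (1.01 to 1.13), 1.13 (1.08 to 1.19) and 1.15 (1.09 to 1.21). Hoxd was the most raised in RGM with both antibodies, and Hoxc was not raised with anti-FLAG. With anti-FLAG 27 of 38 genes had the interval above 1 (33.7% of all genes) and 1, Hoxc4, below (24%), with a median of 1.33 against 1.03 over all genes. With wild-type anti-GZF1 21 were above 1 (25.7%) and 1, Hoxb9, below (18.7%), with a median of 1.24 against 1.02. The counts above 1 were lower relative to the flanks, a ratio computed for the clusters and not for all genes. With anti-FLAG 21 genes then had the interval above 1 and 2, Hoxc4 and Hoxc6, below, with a median of 1.13. Of the 10 Hoxa genes, all above 1 before, 4 were among them, Hoxa3, Hoxa5, Hoxa6 and Hoxa10. With wild-type anti-GZF1 17 were above and 0 below, with a median of 1.15, and the Hoxb9 interval then held 1. The largest unadjusted ratios were 1.74 (1.58 to 1.91) at Hoxa10 with anti-FLAG and 1.65 (1.34 to 2.04) at Hoxd12 with anti-GZF1. Divided by the flank ratio these 2 came to 1.30 (1.18 to 1.43) and 1.53 (1.24 to 1.89). The line, the clone and the depth differ together between these libraries and cannot be told apart.

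Anti-FLAG gave lower Hox read densities than wild-type anti-GZF1 in the same line. The median ratio of the Hox genes was 0.838 in the Cas9 line, against 0.961 over all genes, and 0.906 in RGM, against 0.970. The anti-FLAG to wild-type anti-GZF1 ratio over all Hox bins was 0.870 (0.853 to 0.888) in the Cas9 line and 0.904 (0.881 to 0.927) in RGM, and 0.934 (0.915 to 0.953) and 0.910 (0.887 to 0.933) relative to the flanks. In the Cas9 line 23 genes had the interval below 1 (25.8% of all genes) and 1, Hoxc9, above (9.72%). In RGM 15 were below (19.2%) and 1, Hoxb9, above (7.82%). Relative to the flanks 14 genes were below in the Cas9 line and 16 in RGM, with Hoxc9 and Hoxb9 again the 1 gene above in each. These counts relative to the flanks were not made for all genes and have no background share. The antibodies and the source of the protein differ between these libraries and cannot be told apart. H3K27ac did not set the clusters apart from the input. Its ratio to the input over all Hox bins was 0.980 (0.939 to 1.02), with 0.964 in the flanks. Relative to the flanks the ratio was 0.966 (0.890 to 1.05) at Hoxa, 1.01 (0.929 to 1.09) at Hoxb, 1.11 (1.02 to 1.21) at Hoxc and 0.968 (0.877 to 1.07) at Hoxd, so only Hoxc had an interval above 1.

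Genes linked to the Hox genes were measured over their own 100 kb flanks in the same way, for which the medians of the 38 Hox genes were 1.12 and 1.24 with anti-FLAG in the Cas9 and RGM lines and 1.17 and 1.31 with wild-type anti-GZF1. Over all genes these medians were 1.04, 1.05, 1.05 and 1.06. The 9 Hox cofactors, the Meis, Pbx and Pknox genes whose proteins bind DNA with Hox proteins, had medians of 1.04 and 1.01 for anti-FLAG and 1.01 and 1.04 for wild-type anti-GZF1. None of them reached 1.5 times its flanks with Cas9 anti-FLAG, RGM anti-FLAG or Cas9 wild-type anti-GZF1, and 1, Pbx2, did with RGM wild type (1.52). The 24 Hox regulators found of 25 listed, Polycomb and trithorax genes, Ctcf and genes of retinoic acid signalling, had 1.10 and 1.22 for anti-FLAG and 1.15 and 1.28 for wild-type anti-GZF1. In them 2 and 3 reached 1.5 with anti-FLAG (4.18% and 6.84% of all genes), led by Kdm6b (1.64 and 1.73), a demethylase of the Polycomb mark, and 3 and 5 with wild-type anti-GZF1 (6.3% and 12.3%), led by Cyp26a1 (1.88 and 2.18), which breaks down retinoic acid and was also the highest in the input (1.84). The 5 autosomal ParaHox genes, the sister cluster of the Hox genes, had 1.19 and 1.17 for anti-FLAG and 1.34 and 1.35 for wild-type anti-GZF1, with Gsx1, a brain gene, the highest in all 4 (1.63, 1.61, 1.74 and 1.97). The 19 genes beside the clusters had 1.08 and 1.07 for anti-FLAG and 1.06 and 1.09 for wild-type anti-GZF1, and the 10 non-coding genes inside them 1.02 and 1.11 for anti-FLAG and 1.13 and 1.14 for wild-type anti-GZF1. Neither of these 2 lists stood above the Hox genes. In the input the medians were 1.13 for the Hox genes, 0.984 for the cofactors, 1.10 for the regulators and 1.16 for the ParaHox genes. For the genes beside the clusters and the non-coding genes they were 1.06 and 1.06, and over all genes 1.04. With Cas9 anti-FLAG the medians of the Hox genes, the regulators and the non-coding genes were no higher than in the input.

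A list of 24 other developmental genes, most of them homeobox genes that are silent in stem cells as the Hox genes are, stood higher over their own flanks than the Hox genes did. Their medians were 1.43 and 1.60 for anti-FLAG and 1.66 and 2.06 for wild-type anti-GZF1, 1.35 with H3K27ac, 1.33 in the input, 1.05 for the control and 1.07 for the knockout. Of the 24, 9 and 14 were at 1.5 times the flanks or more with anti-FLAG in the Cas9 and RGM lines (4.18% and 6.84% of all genes), and 14 and 17 for anti-GZF1 in wild-type cells (6.3% and 12.3%). The counts were 8 with H3K27ac (6.1%), 10 in the input (7.36%), 1 for the control (0.822%) and 0 for the knockout (0.811%). Irx5 led with Cas9 anti-FLAG (2.13) and Cas9 wild-type anti-GZF1 (2.51), and Otx1 in both RGM libraries (2.60 and 3.78). As in the Hox clusters, the control and the knockout were nearly flat while the input was raised. The flanks of a Hox gene hold other Hox genes, so the 2 lists are not on equal terms.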

How the data were processed

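ChIP-seq libraries of stem cells of the mouse embryo were taken from 1 table of 1 kb bins with 8 columns, each matched to a library by its label; the other 4 libraries of the series were not analysed here. The authors deposited estimated counts, reads summed in each bin, not scaled to depth: 100% were multiples of 0.05 (tolerance 0.001). Per the submitters' processing notes, the authors used cutadapt, Bowtie2 2.5.4, SAMtools, deepTools and mm10; any filter on duplicate reads or mapping quality is not given in the sources used here. Reads of repeated or near-identical sequence may therefore be counted differently from unique ones.

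Gene positions and promoters came from RefSeq (GRCm38.p6), matched by symbol. Counts were scaled to the autosomal mean, called at the thresholds given in the report, and compared with all autosomal genes or bins. Ratios carry exact binomial (Clopper-Pearson) and densities exact Poisson intervals on rounded counts; ratios relative to the flanks take the flank ratio as fixed. Interval counts over all genes between libraries used genes with 30 or more reads in the library divided by. Those over own flanks used all genes whose flanks held reads in every library, with no such minimum. Depth was 10087804 to 94184865 reads. Sensitivity alternatives changed flank length, gene window, input filter, scaling, pseudocount and thresholds. Named genes were, per cluster, the 3 with the highest and the 1 with the lowest anti-FLAG value over the flanks in the lower line, and Hoxa10; named bins were the 2 highest per cluster and antibody and the lowest and highest knockout ratio. The genes and lists were chosen with earlier results of these data known. The scripts were tested on simulated data. Python 3.11.15, numpy 2.4.6, pandas 2.3.3, scipy 1.17.1 and matplotlib 3.10.9 were used.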

Additional observations from a re-analysis of the deposited data

Results flagged for a closer look

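Hoxb9, a trunk gene, moved in opposite directions between the antibodies in the 2 lines. Relative to the flanks, its anti-FLAG to wild-type anti-GZF1 ratio was 0.837 (0.739 to 0.949) in the Cas9 line and 1.30 (1.09 to 1.55) in RGM, each from 1 library per antibody. The Hoxb9 densities were 1.75 and 2.35 with anti-FLAG in the Cas9 and RGM lines and 2.33 and 1.92 with wild-type anti-GZF1, so RGM was the higher line with anti-FLAG and the lower with anti-GZF1. The difference between the lines was not tested.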

How the results depend on the processing

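Of the values recomputed under each alternative, 80 stayed within the set limits (the 95% interval of the ratio, or 1.5 times the count) and 65 moved. Dividing each library's ratio to the flanks by that of the input left 1.30 with RGM wild-type anti-GZF1, 1.18 with RGM anti-FLAG, 1.13 with Cas9 wild-type anti-GZF1, 1.06 with Cas9 anti-FLAG, 1.02 with H3K27ac and 0.859 in the control, and turned the knockout to the other side of 1 (0.869). By construction this takes out the excess that the input carries. With flanks of 200 kb the ratios were 1.12 in the input, 1.15 with H3K27ac, 1.22 with Cas9 anti-FLAG, 1.30 with Cas9 wild-type anti-GZF1, 1.01 in the knockout and 0.993 in the control. With flank bins over genes left out they were 1.27 in the input, 1.28 with H3K27ac, 1.34 and 1.47 with anti-FLAG in the Cas9 and RGM lines, 1.43 and 1.67 with wild-type anti-GZF1 and 1.05 in the knockout. Gene bodies with 0 kb on each side gave 1.27 and 1.43 with anti-FLAG in the 2 lines, 5 kb on each side 1.37 with RGM anti-FLAG, and bins with an input of 0.25 to 3 times its mean 1.10 in the input and 1.35 with RGM anti-FLAG. With the share of all genes called under the same setting in parentheses, the number of Hox genes called over the input became 3 (4.99%) with Cas9 anti-FLAG at a pseudocount of 0.25. At a pseudocount of 1 it was 0 (0.984%) with H3K27ac, 3 (2.88%) with RGM anti-FLAG, 0 (1.17%) with Cas9 wild-type anti-GZF1 and 8 (5.63%) with RGM wild type. Scaled to the median it was 0 (1.77%) with H3K27ac, 4 (3.84%) with RGM anti-FLAG and 1 (2.14%) with Cas9 wild-type anti-GZF1, and scaled to the chromosome 1 (2.77%), 3 (5.28%) and 3 (3.55%) with Cas9 anti-FLAG, RGM anti-FLAG and Cas9 wild-type anti-GZF1. At a log2 threshold of 1 it was 0 (0.0893%) with H3K27ac, 0 (0.319%) with RGM anti-FLAG, 0 (0.0872%) with Cas9 wild-type anti-GZF1 and 1 (0.774%) with RGM wild type, and under the input filter 1 (1.96%) with Cas9 anti-FLAG and 8 (4.02%) with Cas9 wild-type anti-GZF1. The number of Hox genes that stood 25% or more above their own flanks was 11 (21.4%) in the input, 6 (20%) with H3K27ac, 6 (15.9%) and 16 (20.9%) for anti-FLAG in the 2 lines and 12 (19.8%) and 24 (27.3%) with wild-type anti-GZF1. At 2 times it was 0 (1.2%) in the input, 0 (0.777%) and 0 (1.32%) with anti-FLAG and 0 (3.19%) with RGM wild type. Own flanks of 50 kb gave 0 (3.78%) with Cas9 anti-FLAG and 1 (11.7%) with RGM wild type, and own flanks of 200 kb 1 (7.28%) with H3K27ac, 2 (4.92%) and 6 (7.66%) for anti-FLAG and 4 (7.42%) and 15 (13.2%) with wild-type anti-GZF1. At a local log2 threshold of 0.8 the bins called in both lines were 4 (0.363% of all bins) for anti-FLAG and 9 (0.701%) for wild-type anti-GZF1, and at 1.5 there were 0 (0.0499%) with wild-type anti-GZF1. The knockout to control ratio over all Hox bins was 1.06 when scaled to the chromosome. Divided by the flank ratio, RGM over Cas9 was 1.12 for anti-FLAG and 1.15 for wild-type anti-GZF1, and wild type over control 1.32. Leaving out the 2 bins of the Hoxc9 peak, an alternative chosen after seeing the data, gave 1.37 and 1.43 at Hoxc9 with anti-FLAG in the Cas9 and RGM lines. Other than through the division by the input, the cause of these shifts was not tested.

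Depth limits single bins most. The input held 10087804 reads and the RGM wild type 21824176, the lowest totals of the 8 libraries. No paired analysis was possible because every group is 1 library here, and for the same reason no setting leaves out a library.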
